A study of Caenorhabditis elegans with 15 samples.

Results

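Transcript levels were compared between animals labelled u218 KO and animals labelled u74 KO, both *Caenorhabditis elegans* at the L4 larval stage, without reference to the wild type. The comparison used 3 u218 and 3 u74 libraries of the 15 in the series, all made from polyA RNA of whole animals, and both labels give N2 as the strain. The labels name no gene for u74 or u218 and do not say whether the libraries of a genotype came from separate cultures, so p-values measure only the spread between these samples, which may be technical. The series title concerns splicing regulated by *mec-8*. For each gene the deposited table holds 1 average per genotype in normalized counts, that is, read counts divided by a size factor for each library. A gene was considered where either average was at least 20 normalized counts, which kept 16279 of 46926 genes; 20586 genes were at 0 in both columns. The gene F47B8.10, with averages of 12.1 (u74) and 20.01 (u218), was just inside this limit, and F19H6.6, with 11.3 and 19.99, was just outside. The ratio of a gene is log2((u218 average + 1)/(u74 average + 1)). Higher and lower refer to ratios of these averages at 2-fold or more, which carry no replicate error and were not tested.

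L4 is the last larval stage, when the gonad makes sperm before it switches to oocytes, and a final moult replaces the larval cuticle with the adult one. Each moult draws on a wave of collagen, cuticlin and protease transcripts in the epidermis. After it, the intestine of the adult makes yolk protein, which growing oocytes take up. MEC-8 is an RNA-binding protein that controls alternative splicing in touch receptor neurons and epidermis. The values sum all reads of a gene and do not separate splice forms, and in whole animals fewer cells of a type cannot be told apart from less RNA per cell.

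Most transcripts of yolk, oocytes and sperm were lower in u218 than in u74 by large factors. Transcripts of the annular furrow collagens of the cuticle and most of those of moulting were higher. Of the genes considered, 3045 (18.7%) were at least 2-fold higher in u218 and 3356 (20.6%) were at least 2-fold lower. Lower genes lay further from equality than higher ones. At 4-fold there were 537 higher and 2226 lower genes, at 16-fold 20 and 1070, and at 64-fold 1 and 271. The median ratio over all genes considered was 0.15, against which the medians of gene groups below are read. Column totals were 63068771 normalized counts in u74 and 68830842 in u218.

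Replicate values came from the averages themselves. Every nonzero average below 300 normalized counts in either column had exactly 1 set of whole reads in 3 libraries that gives it, so each library's value is known for these genes. The recovered libraries are numbered by falling size factor (1.95, 1.58 and 1.46 in u74, 1.99, 1.79 and 0.831 in u218), and these numbers are not the replicate numbers of the labels. Of the genes considered, 4625 had both averages below this limit; in the other 11654 at least 1 genotype reached it and had no library values. Genes known in all 6 libraries with a mean of at least 5 normalized counts, 6120 in all, were tested with limma on log2(normalized count + 1). A gene is said to have risen or fallen only where its Benjamini-Hochberg adjusted p was under 0.05. By limma 657 genes (10.7%) rose and 979 (16%) fell in u218, and in all of them the libraries of the groups did not overlap. Among all genes tested the libraries did not overlap in 1533 (25%) with u218 higher and in 1352 (22.1%) with u218 lower. With TMM scaling, which moved the median change of tested genes by -0.32, 213 (3.48%) rose and 1009 (16.5%) fell, and limma voom gave 12.2% and 17.5%.

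Library 3 of u218 stood apart from the other libraries of its group. Among 6079 genes it was at least 4-fold above both other u218 libraries in 1208 and at least 4-fold below both in 792, which is 32.9% of genes. The same share was 1.32% and 0.477% for u218 libraries 1 and 2, and between 0.329% and 0.71% for the u74 libraries. Across these genes, which share library and depth and average between 10 and 300 normalized counts in u218, the correlation of log2 values was 0.949 between u218 libraries 1 and 2, and 0.152 and 0.217 between each of them and library 3. These values depend on the genes kept: over the 6120 genes tested they were 0.959, 0.564 and 0.585, against 0.873 to 0.909 between u74 libraries, and over all 14353 genes resolved above 0 in u218 they were 0.948, 0.707 and 0.737. The median SD within the group on the log2 scale was 0.74 in u218, 0.22 in u218 without library 3 and 0.38 in u74. Without this library, 1990 of 6052 genes (32.9%) rose and 1431 (23.6%) fell. Of the 657 rises 650 were called again, as were all 979 falls, and no gene was called in the opposite direction. For genes whose u218 average was not resolved a bound applies, since leaving out 1 of 3 libraries raises an average by at most 1.5 times. By that bound 2539 of the lower genes (75.7%) stayed 2-fold lower however the u218 average was divided among its libraries. By the matching bound for u74, 1135 of the higher genes (37.3%) stayed 2-fold higher however the u74 average was divided. This second bound does not cover the division of the u218 average, so a higher average carried by library 3 alone could pass it.

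**Figure D1:**
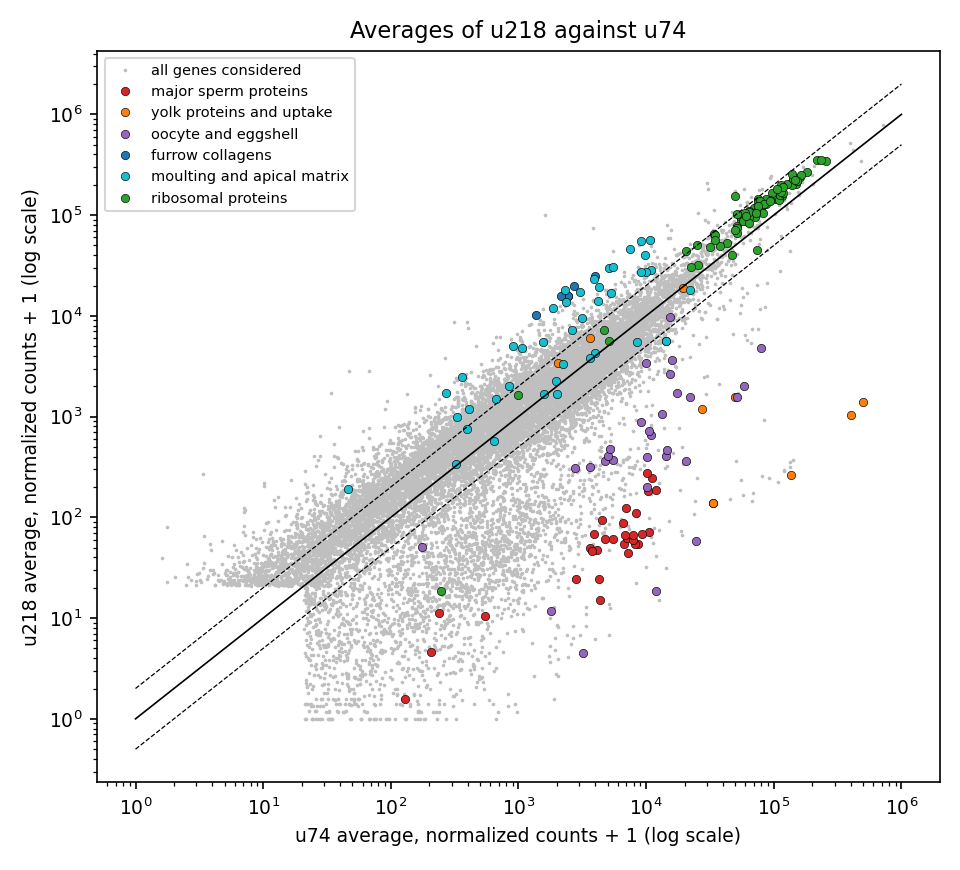
Average in u218 against average in u74, both in normalized counts + 1 on log axes, for the 16279 genes considered; each point is a gene, coloured points are members of 6 gene groups, the solid line marks equal averages and the dashed lines 2-fold. Below the lower line lie 31 of 31 major sperm protein genes, 7 of 10 yolk genes and 29 of 30 oocyte genes. The 6 furrow collagens lie above the upper line, and most of the 81 ribosomal protein genes lie between the lines on the upper side.

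Yolk transcripts showed some of the widest gaps. The vitellogenins are the yolk proteins that the adult intestine secretes. *vit-6* averaged 498418 normalized counts in u74 and 1396 in u218, a ratio of -8.48. *vit-2* averaged 405211 and 1046, a ratio of -8.60. *vit-5* averaged 135811 in u74 and 263 in u218, where its libraries held 177, 193 and 420 normalized counts. All 3 *vit-5* libraries of u218 were thus far below the u74 average, and library 3 was the highest of them. Of 10 genes for yolk proteins and their uptake 7 were lower and 0 higher, with a median ratio of -6.44, and the 7 stayed lower for any division of the u218 average. The yolk receptor *rme-2*, which the oocyte carries, averaged 27427 in u74 and 1200 in u218.

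Oocyte and eggshell genes were lower in 29 of 30 cases and higher in 0, with a median ratio of -3.84. *cbd-1*, a chitin-binding protein of the eggshell, averaged 79060 in u74 and 4760 in u218. The eggshell chondroitin proteoglycans *cpg-1* and *cpg-2* averaged 51282 and 58138 in u74 against 1569 and 2003 in u218. The permeability barrier genes stood lower still. *perm-4* averaged 24543 in u74 and held 14.1, 29.5 and 126 normalized counts in the u218 libraries. *perm-2* averaged 11924 in u74 and held 11.6, 20.1 and 21.7 in the u218 libraries. *meg-1*, a P granule protein of the early embryo, averaged 3173 in u74 and held 1.51, 0.557 and 8.43 in u218. For all 3 of these genes every u218 library was below the u74 average by a wide margin, and 27 of the 30 genes were lower for any division of the u218 average.

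Genes of the earlier germ line were lower by smaller factors. The meiosis and chromosome axis list held 24 lower and 0 higher genes of 28, with a median ratio of -1.34. Within it *him-17*, a chromatin protein required for meiotic double-strand breaks, had a ratio of -0.74 and the synaptonemal complex protein *syp-4* a ratio of -1.52. *lab-1*, which protects cohesion on the long arm of meiotic chromosomes, stood apart from that list at 1414 normalized counts in u74 against 38.2, 51.3 and 135 in the u218 libraries. Of 28 genes for germline stem cells, germ granules and small RNAs 19 were lower and 2 higher, with a median of -1.43. The translational repressor *gld-1* averaged 47517 in u74 and 6632 in u218, and the germ granule helicase *cgh-1* averaged 85552 and 12234. *glh-1*, a helicase at the core of germ granules, had averages of 50105 and 32485, a ratio of -0.63 that is under 2-fold. In the cell cycle list 16 of 36 genes were lower and 2 higher, with a median of -0.93. The B-type cyclins led it, with *cyb-2.2* at a ratio of -4.20, *cyb-2.1* at -3.73 and *cyb-1* at -2.46.

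Sperm genes were lower throughout the major sperm protein family, whose products form the cytoskeleton of the crawling sperm and signal to oocytes. All 31 members considered were at least 16-fold lower, with a median ratio of -6.35. *msp-59* averaged 10617 normalized counts in u74, and its u218 libraries held 12.1, 21.2 and 177. *msp-81* averaged 11898 in u74 and held 15.6, 27.9 and 511 in u218. In both genes library 3 was the highest u218 library by several times and was still far below the u74 average. Over the 31 members the u218 library medians were 8.55, 12.8 and 157 normalized counts, and their sums were 293, 420 and 6200. Without library 3 the median ratio was -8.86. Only 3 members were low enough in u74 to be tested, and all 3 fell by limma with and without library 3. Members of this family are near-identical in sequence, so how reads were divided among them is uncertain.

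The same held for 58 sperm genes outside that family, of which 54 were lower and 3 higher, with a median ratio of -4.14. *ssq-2*, a sperm-specific family member, averaged 19466 in u74 and 337 in u218, and *msd-4*, which codes for an MSP-domain protein, averaged 7098 and 46.9. *spe-15*, the myosin VI of spermatids, was lower by less, at 8379 and 1159. Over the 43 genes resolved in u218 the library medians were 5.53, 6.69 and 116, and the median ratio was -4.77 with library 3 and -7.67 without it. Of 9 members tested 5 fell by limma, and 8 fell without library 3. *spe-9*, a sperm surface protein needed at fertilization, averaged 449 in u74 and held 31.7, 31.8 and 196 in u218, so library 3 was the closest of them to the u74 average.

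Among uterus, spermatheca and vulva genes, 10 of 24 were lower and 4 higher, with a median ratio of -0.83. The lowest were *ule* genes, named for expression in the uterine lumen. *ule-3* averaged 12583 in u74 and held 9.56, 8.36 and 24.1 in u218, and *ule-5* averaged 3958 and held 4.03, 3.34 and 8.43. The most abundant other members differed by less than 2-fold: the filamin *fln-1* had a ratio of -0.76 and *him-4*, the hemicentin that holds the uterus to its neighbours, a ratio of 0.52.

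The 15 lowest ratios among genes with at least 50 normalized counts in either column ran from -10.22 to -9.02, and most of these genes carry only a sequence name. Several are neighbours. ZK813.1, ZK813.2 and ZK813.3 lie next to each other on chromosome X (3441839 to 3446935, plus strand, WBcel235), and averaged 1886, 830 and 2436 normalized counts in u74 against 0.587, 0.335 and 3.10 in u218. Y62H9A.4 and *ule-5* also lie side by side on X (11880126 to 11884042), as do F55B11.2 and F55B11.3 on IV. ZK813.1 had 2 reads in all u218 libraries together; divided by the summed size factors of these libraries this is 0.434 normalized counts, and the u74 average was 4350-fold higher on that scale, with a 95% counting interval from 1204 to 35917. ZK813.2, also with 2 reads, gave 1914-fold on that scale, with an interval from 530 to 15805. *cdc-25.3*, one of the CDC25 family of cell cycle phosphatases, averaged 666 in u74 and had 0 reads in u218, so it was at least 1025-fold lower when 3 reads over the group are taken as the limit, 0.65 normalized counts on the same scale. These intervals and limits cover counting error only.

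**Figure D2:**
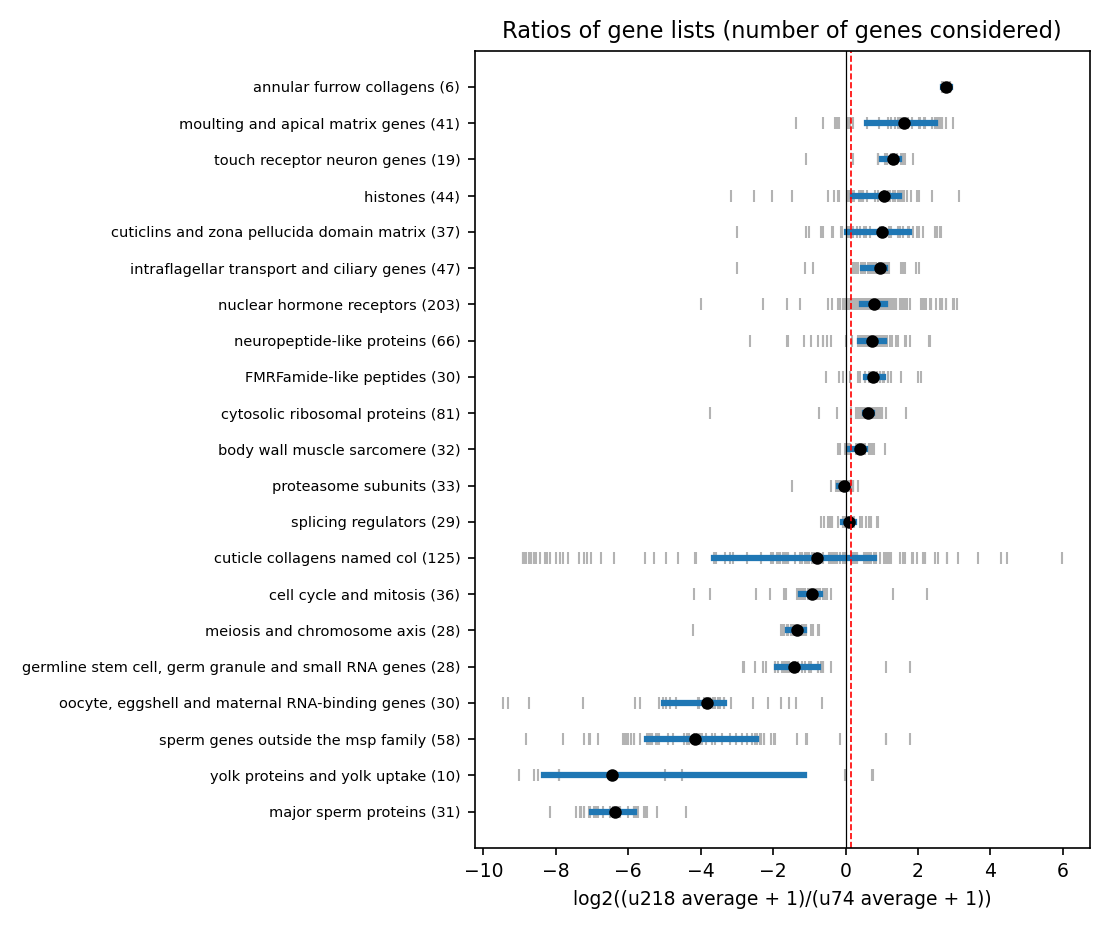
Ratio of the averages, log2((u218 average + 1)/(u74 average + 1)), for the members of 21 gene lists; each grey tick is a gene, the blue bar spans the middle 50% of members, the black dot is the median, the solid line is 0 and the red dashed line is the median of all genes considered, 0.15. Among the lists drawn, furrow collagens and moulting genes sit highest, with medians of 2.79 and 1.60, sperm and yolk genes sit lowest, and the col collagens spread from -8.91 to 5.97.

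Among genes that could be tested, the 15 largest falls by limma were from 153 to 290 normalized counts in u74 to 1.00 or less in u218. ZK177.1 held 103, 253 and 457 normalized counts in the u74 libraries (271 ± 178, SD, n = 3) and 0 in each u218 library (limma adjusted p = 0.00082). The libraries did not overlap, and it was at least 417-fold lower by the limit of 3 reads. *msrp-4* held 286, 267 and 228 in u74 (260 ± 29.9) and 0, 0 and 1.2 in u218 (limma adjusted p = 0.000745). By its 1 u218 read it was 1201-fold lower, with a counting interval from 216 to 47446. *ssp-37*, a member of a sperm-specific gene family, held 106, 193 and 246 in u74 and 0 in all u218 libraries, at least 279-fold lower (limma adjusted p = 0.000745). The C-type lectin *clec-97* held 79.0, 138 and 243 in u74 and 0 in all u218 libraries, at least 236-fold lower (limma adjusted p = 0.00082). In 630 of the 881 genes considered that fell, and in 275 of the 598 that rose, library 3 held the highest of the u218 values. The same share over all genes tested was not computed, so these counts do not set the called genes apart. Whether called or not, 1208 of 6079 genes had library 3 at least 4-fold above both other u218 libraries.

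Cuticle genes divided in both directions. Collagens of the adult cuticle were among the lowest transcripts of u218. *col-19*, the standard marker of the adult epidermis, averaged 67364 normalized counts in u74 and held 88.0, 116 and 225 in the u218 libraries. *col-140* averaged 108165 in u74 and held 176, 166 and 329 in u218, and *col-129* averaged 133200 and 312. For *col-19* and *col-140* every u218 library was far below the u74 average, with library 3 the highest. *bli-6*, a collagen whose mutants blister, was also lower, at 59456 and 6387. In the adult cuticle and alae list as a whole 7 of 21 genes were lower and 10 higher, with a median of 0.86; among the higher ones *sqt-3*, a collagen used in several stages, averaged 49254 and 172700.

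The 6 annular furrow collagens, which mark the rings of the cuticle and are made early in each moult, were all higher in u218, with a median ratio of 2.79. *dpy-7* averaged 2726 normalized counts in u74 and 19986 in u218. *dpy-10*, at 1372 and 10159, and *dpy-9*, at 2134 and 15690, had ratios of 2.89 and 2.88. The 6 ratios lay between 2.65 and 2.89, and all 6 genes stayed higher for any division of the u74 average. Their u218 averages were resolved in 0 of 6 genes, so the part of library 3 in them is not known. Body shape collagens outside the furrows followed with 9 of 14 higher and 2 lower, *rol-6* at 2.36 and *rol-8* at 2.18.

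The wider *col* family spread more than any other list with 30 or more members drawn in the plot of list ratios. Of 125 genes 29 were higher and 58 lower, with a median of -0.79; 31 were at least 16-fold lower and 3 at least 16-fold higher. *col-41* averaged 1599 in u74 and 100325 in u218, a ratio of 5.97 and the second highest among all genes with at least 50 normalized counts in either column. *col-90* averaged 3824 and 74691, *col-54* averaged 393 and 8649, and *col-17* averaged 30001 and 207790. Of 27 members tested 3 rose and 2 fell by limma. *col-108* was the largest of these rises, from 0.513, 1.26 and 1.37 normalized counts in u74 (1.05 ± 0.468, SD, n = 3) to 28.2, 22.3 and 24.1 in u218 (24.9 ± 3.01), a limma change of 3.68 ± 0.48 (SE, adjusted p = 0.00362). Collagen genes resemble each other in their repeats, so reads may be shared between members.

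Of 41 moulting and apical matrix genes 29 were higher and 1 was lower, with a median ratio of 1.60. *noah-1* and *noah-2*, which code for matrix proteins linking epidermis to cuticle, averaged 9086 and 7525 normalized counts in u74 against 55839 and 46359 in u218. *mlt-11*, a protease inhibitor required for moulting, averaged 10792 and 55947. *nhr-25*, a nuclear receptor that drives moulting, averaged 361 and 2490, and *wrt-10*, a warthog-type hedgehog-related protein, averaged 2305 and 18101. For 22 of the 41 genes the u218 average was 2-fold higher for any division of the u74 average. The u218 average was resolved into libraries for only 1 of the 41. The 1 member in the range of the test did not pass it with all libraries and rose without u218 library 3. Of 37 cuticlins and other zona pellucida domain proteins 19 were higher and 2 lower, led in abundance by *cut-2* at 25584 and 103784. *dyf-7*, a zona pellucida protein that anchors sensory dendrites, was the lowest, at 437 and 53.8. By limma 3 of 18 cuticlins tested rose and 0 fell, 10 rose and 1 fell without library 3, and 2 rose with TMM scaling.

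Related families of the epidermis held more higher than lower averages. Of 43 hedgehog-related genes 21 were higher and 7 lower, and of 26 patched-related genes 13 and 1. By limma 1 of 21 hedgehog-related genes tested rose and 2 fell, 8 of 20 rose and 4 fell without library 3, and with TMM scaling 1 rose and 3 fell. *qua-1*, a hedgehog-related protein needed for moulting, averaged 9836 and 40001. *ptr-4*, a patched-related protein that acts in the moult, averaged 5270 and 16699, while *ptc-1*, the patched homolog that acts in germline cytokinesis, averaged 26915 and 9481. *grl-27* fell by limma, from 309, 330 and 174 in u74 to 58.9, 44.6 and 44.6 in u218, a change of -2.39 ± 0.34 (SE, adjusted p = 0.00475). Astacin metalloproteases showed no common direction, with 7 of 30 higher and 6 lower: *nas-37*, which digests the old cuticle, averaged 3122 and 9477, while *nas-21* held between 116 and 177 in the u74 libraries (141 ± 32.1, SD, n = 3) against 0, 0 and 1.2 in u218 (limma adjusted p = 0.00082), by its 1 read 648-fold lower with a counting interval from 116 to 25603.

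Among 15 genes of larval timing 7 were higher and 0 lower, with a median of 1.00, and 5 and 1 after recentring. *hbl-1*, a transcription factor of early larval fates, averaged 508 and 1834. *lin-46*, which promotes later larval fates, held 119, 153 and 106 normalized counts in the u74 libraries and averaged 742 in u218. *lin-42*, the period homolog whose transcripts cycle with the moults, averaged 10001 and 27335. *lin-41*, an RNA-binding repressor that also acts in oocytes, had the lowest ratio of the list, -0.94. *bro-1*, the CBFβ homolog of the epidermal seam cells, rose from 24.6, 13.9 and 21.9 in u74 (20.2 ± 5.59, SD, n = 3) to 310, 355 and 193 in u218 (286 ± 83.8), a limma change of 3.75 ± 0.40 (SE, adjusted p = 0.00192). The libraries of the 2 groups lay far apart, with library 3 the lowest of u218. Surface coat genes, in which mutants change how microbes adhere to the cuticle, gave 7 higher and 0 lower members of 10, with a median ratio of 1.75. *bus-1* held 131, 85.9 and 57.6 in the u74 libraries and averaged 1425 in u218.

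The genes furthest above u74 came from several families. Y17D7C.2, known by its sequence name only, held 4.62, 1.90 and 0.686 normalized counts in the u74 libraries (2.40 ± 2.01, SD, n = 3) and 163, 222 and 426 in the u218 libraries (270 ± 138). Its limma change was 6.37 ± 0.61 (SE, adjusted p = 0.00132), the largest rise, and was 5.99 without library 3. C08E3.1, likewise, held 4.11, 5.69 and 17.8 in u74 and 120, 134 and 361 in u218 (limma change 4.39 ± 0.67, adjusted p = 0.00598). Both genes had their highest u218 value in library 3, and neither had overlapping groups. *tba-8*, an alpha tubulin, held 24.6, 27.2 and 46.6 in u74 and averaged 1707 in u218. The acyltransferase homolog *oac-29* held 63.1, 44.2 and 29.5 in u74 and averaged 2850 in u218. *dpy-1*, a gene of body shape, averaged 310 and 8703.

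Some high averages rested on u218 libraries 1 and 2 alone. F17B5.6 held 99.6 and 138 normalized counts in those libraries and 0 in library 3, against 1.03, 1.26 and 0 in u74. It did not pass limma with all libraries (adjusted p = 0.158) and did without library 3 (adjusted p = 1.71e-05). The C-type lectin *clec-38* held 75.5, 115 and 2.41 in u218 and 1.03, 5.69 and 0.686 in u74 (limma adjusted p = 0.104, and 0.00019 without library 3). WBGene00007754 held 321, 330 and 10.8 in u218 against 9.75, 12.0 and 5.49 in u74 (limma adjusted p = 0.0847, and 4.3e-06 without library 3). *scl-25*, a secreted SCP/TAPS protein gene, held 174, 286 and 1.2 in u218 and 11.3, 8.84 and 31.6 in u74 (limma adjusted p = 0.542, and 0.000235 without library 3). In all 4 genes the groups overlapped through library 3, and in *scl-25* that library lay below all u74 libraries.

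**Figure D3:**
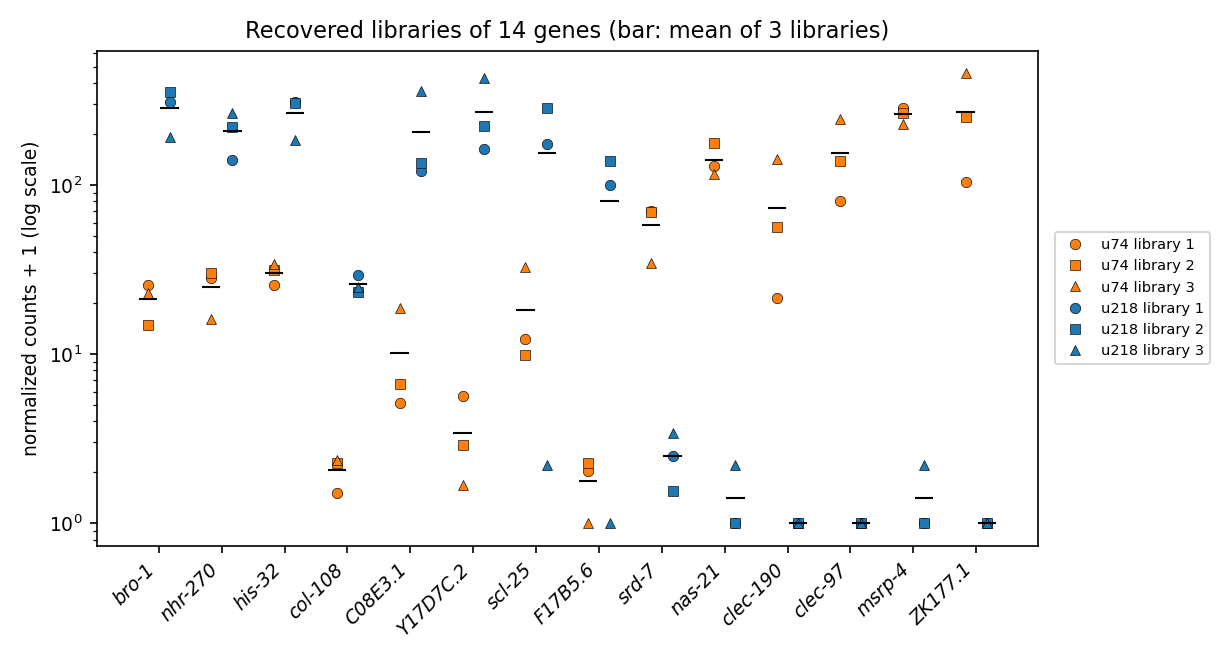
Normalized counts + 1 on a log axis in each recovered library for 14 genes, with u74 in orange and u218 in blue; marker shapes give the library number and the black bar is the mean of 3 libraries. The groups are far apart in bro-1, Y17D7C.2 and ZK177.1, whereas u218 library 3 lies with or below the u74 libraries in scl-25 and F17B5.6.

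Neuronal genes were higher by modest factors. Of 19 touch receptor neuron genes 14 were higher and 1 lower, with a median ratio of 1.32. The neurons sense gentle touch through a channel and specialised microtubules. *mec-4*, the channel subunit, held 123, 104 and 95.3 normalized counts in the u74 libraries and averaged 334 in u218. *mec-12*, the alpha tubulin of these neurons, averaged 3155 and 7938, and its beta tubulin partner *mec-7* averaged 1581 and 4603. *mec-18* averaged 318 and 1002. By limma 2 of 3 members tested rose, 3 without library 3 and 1 with TMM scaling.

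The list of 47 intraflagellar transport and ciliary genes had 22 higher and 2 lower members, with a median of 0.94. Ratios recentred on the median of all genes left 8 higher and 3 lower, against 2328 and 3725 of all 16279 genes considered. By limma 8 of 33 rose and 0 fell. Without library 3, 31 rose and 1 fell, and with TMM scaling 4 rose and 0 fell. *nphp-1*, a transition zone protein at the base of the cilium, held 23.6, 34.1 and 14.4 in u74 (24.0 ± 9.86, SD, n = 3) and 109, 118 and 62.6 in u218 (96.3 ± 29.5), a limma change of 1.99 ± 0.48 (SE, adjusted p = 0.0251). Its adjusted p by limma was between 0.0558 and 0.1 when any library other than u218 library 3 was left out. *mks-3*, of the same zone, held 21.6, 25.9 and 24.7 in u74 and 134, 133 and 38.5 in u218 (limma adjusted p = 0.0501, and 8.55e-05 without library 3). In both genes library 3 was the lowest of u218 and was above every u74 library. The medians over 35 members resolved in u218 were 170, 169 and 95.1 in libraries 1, 2 and 3.

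Transmitter and peptide genes gave similar medians. Synaptic genes had a median ratio of 0.85, with 11 of 36 higher and 2 lower, FMRFamide-like peptides 0.75, with 10 of 30 higher and 0 lower, and neuropeptide-like proteins 0.74, with 20 of 66 higher and 4 lower. *nlp-12*, a peptide of a stretch-sensing neuron, averaged 590 and 2900, and *flp-15* averaged 449 and 1908. Recentred on the median of all genes, the higher members came to 3, 6 and 11, against 2328 of all 16279 genes considered. The synaptic share was thus below that of all genes, the neuropeptide-like share close to it and the FMRFamide-like share above it. The 2 lower synaptic genes were enzymes of octopamine and tyramine synthesis. *tbh-1*, which makes octopamine from tyramine and is also expressed in gonadal sheath cells, averaged 1615 in u74 and held 45.8, 56.3 and 3.61 in u218. *tdc-1*, which makes tyramine and is expressed there too, averaged 6932 and 1318. For *tbh-1* all u218 libraries lay far below the u74 average, and library 3 was the lowest. Among the 4 lower neuropeptide-like genes, *nlp-4* averaged 400 in u74 and held 18.1, 23.4 and 151 in u218, a ratio of -2.63. By limma 2 of 23 neuropeptide-like genes rose and 0 fell, 17 rose and 1 fell without library 3, and with TMM scaling 0 rose and 0 fell. Of 27 insulin-like peptide genes 7 were higher and 5 lower, against 18.7% and 20.6% of all genes considered. After recentring 4 were higher and 6 lower, both shares close to those of all genes. By limma 1 of 24 tested rose and 0 fell, 11 of 23 rose and 3 fell without library 3, and with TMM scaling 0 rose and 2 fell. Over the 21 insulin-like genes resolved in u218 the library medians were 102, 75.8 and 9.63. What set library 3 apart was not tested.

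**Figure D4:**
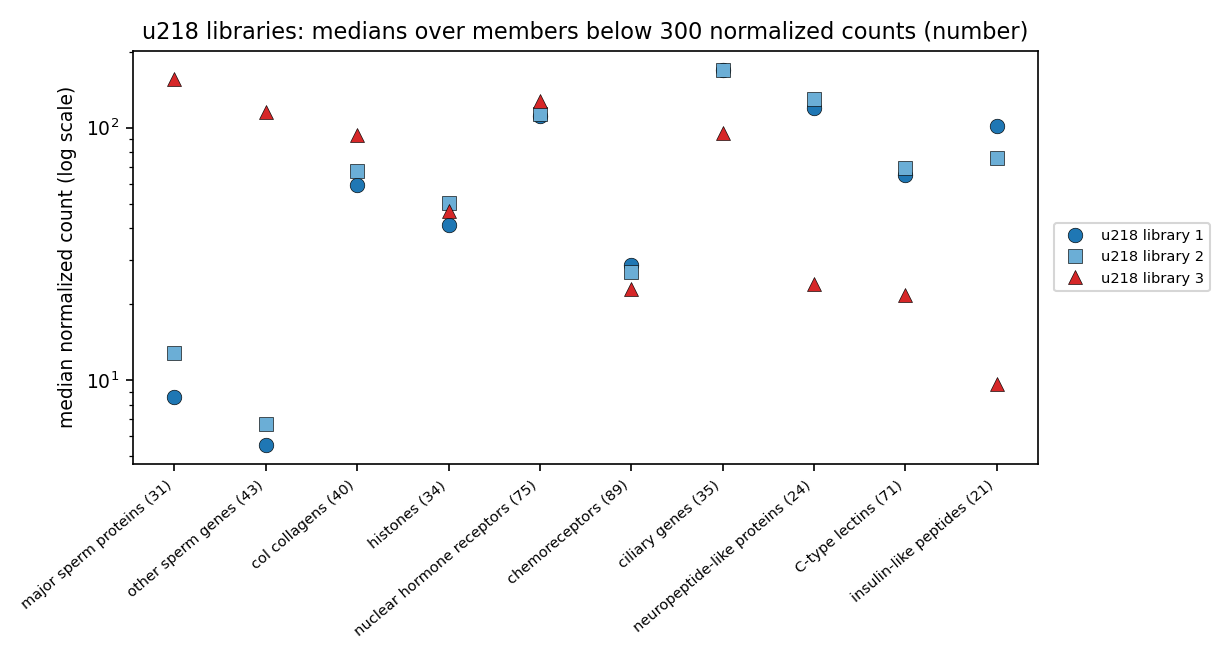
Median normalized count, on a log axis, in each u218 library over the members of 10 gene lists whose u218 average was below 300 normalized counts; the number of such members is in parentheses. Libraries 1 and 2 lie close together in every list shown, while library 3 lies above them for sperm genes (157 against 8.55 and 12.8 for the major sperm proteins) and below them for insulin-like peptides, neuropeptide-like proteins and C-type lectins.

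Chemoreceptors, the seven-pass receptors of sensory neurons, had 49 higher and 18 lower members of 95, with a median of 1.11. By limma 32 of 241 tested rose and 15 fell, and 63 of 222 rose and 24 fell without library 3. With TMM scaling 10 rose and 18 fell. Over all genes tested that scaling took rises from 10.7% to 3.48% and falls from 16% to 16.5%. *srd-7* held 68.8, 68.2 and 33.6 in u74 (56.9 ± 20.1, SD, n = 3) and 1.51, 0.557 and 2.41 in u218 (1.49 ± 0.926), a limma change of -4.54 ± 0.55 (SE, adjusted p = 0.00284). *srw-86* stood at the other end, at 34.9 and 406.

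Nearly all muscle and basement membrane genes differed by less than 2-fold, most of them on the upper side. Of 32 sarcomere genes of the body wall 1 was higher and 0 lower, with a median of 0.38 and 29 above 0. Among the most abundant, the myosin *unc-54* averaged 419905 in u74 and 440968 in u218, and the actin *act-4* averaged 158224 and 157957. Of 19 basement membrane genes 1 was higher and 0 lower, with a median of 0.37 and 17 above 0. In the pharynx, the myosin *myo-2* had averages of 27753 and 24249, but 8 of 24 genes were lower and 4 higher, among the lower ones *abu-1* at 3491 and 577, *abu-7* and *abu-10*, which code for related proteins named for the unfolded protein response. Proteasome subunits had a median of -0.04 and splicing regulators one of 0.08, which became -0.07 when ratios were recentred on the median of all genes. Genes of nonsense-mediated decay had a median of -0.39, with 0 of 9 higher or lower.

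Cytosolic ribosomal protein genes were shifted upward together, most of them by less than 2-fold. The 81 cytosolic ribosomal protein genes had a median ratio of 0.61, with 78 above 0, the middle 50% between 0.52 and 0.73, 3 at 2-fold or more higher and 1 lower. *rpl-4* averaged 232991 and 351423, and *rla-0*, of the ribosomal stalk, averaged 217387 and 352155. *rpl-11.2* was higher by more, at 49414 and 156075. The exception was *rpl-42*, which held 259, 236 and 249 normalized counts in u74 (248 ± 11.5, SD, n = 3) and 3.02, 5.57 and 44.6 in u218 (17.7 ± 23.3), a limma change of -4.55 ± 0.87 (SE, adjusted p = 0.0124). Without u74 library 1, 2 or 3 its adjusted p by limma was 0.0505, 0.0593 and 0.0599. Mitochondrial ribosomal proteins had a median of 0.39 with 0 of 66 higher or lower, and respiratory chain genes one of 0.48 with 0 of 34 higher and 1 lower. The 42 translation factor genes had no common shift, with 3 higher, 3 lower and 12 below 0. Their median was 0.26, and 0.11 after recentring. Of the elongation factors, *eef-1A.1* averaged 711809 and 788748 and its paralog *eef-1A.2* averaged 58951 and 183546.

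Among 44 histone genes 23 were higher and 4 lower, with a median of 1.06. By limma 8 of 44 rose and 1 fell, 19 of 43 rose and 1 fell without library 3, and 4 rose and 1 fell with TMM scaling. *his-32* held 24.6, 30.3 and 32.9 in u74 (29.3 ± 4.24, SD, n = 3) and 309, 307 and 183 in u218 (266 ± 72.2), a limma change of 3.11 ± 0.34 (SE, adjusted p = 0.00219). *his-24*, a linker histone, averaged 1202 and 4937. *his-70*, an H3.3-type gene, went the other way, with 693 in u74 and 3.02, 20.6 and 334 in u218, where library 3 decided the average. Most replication-dependent histone genes are near-identical copies whose reads may be shared, and their transcripts mostly lack the polyA tail on which the libraries were selected.

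Defence and stress genes were found in both directions, where 18.7% of all genes considered were higher and 20.6% lower. Of 39 infection response genes 19 were higher and 4 lower, with a median of 0.97; *irg-5*, which is switched on by bacterial pathogens, averaged 401 and 7549, and *dod-23* averaged 447 and 3.86. Of 133 C-type lectins 51 were higher and 24 lower, with a median of 0.65. By limma 6 of 89 rose and 12 fell, and without library 3, 30 of 86 rose and 15 fell. Over all genes tested the balance turned likewise, from 10.7% rising and 16% falling to 32.9% and 23.6% without library 3. Lectin *clec-190* held 20.5, 55.6 and 141 in u74 and 0 in all u218 libraries, at least 111-fold lower (limma adjusted p = 0.0034), and *clec-180* averaged 3096 and 16535. Lysozymes, saposin-like proteins and caenacins held 16 higher and 7 lower genes of 67, with a median of 0.46. By limma 0 of 29 rose and 5 fell, and 5 of 27 rose and 5 fell without library 3. The 5 falls of 29 are close to the 16% over all genes tested. *fipr-13*, of a family of small secreted peptides, held 166, 292 and 427 in u74 and 5.03, 8.92 and 4.82 in u218 (limma change -5.29 ± 0.49, SE, adjusted p = 0.00122).

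Small heat shock proteins were the high end of an otherwise even list, in which 10 of 51 genes were higher, close to the 18.7% over all genes, and 5 lower, with a median of 0.09 that became -0.07 on recentring. *hsp-16.2* held 26.2, 15.2 and 39.1 in the u74 libraries and averaged 634 in u218. *hsp-16.48* rose from 10.3, 5.05 and 8.23 in u74 (7.85 ± 2.63, SD, n = 3) to 52.8, 47.9 and 77.1 in u218 (59.3 ± 15.6), a limma change of 2.78 ± 0.46 (SE, adjusted p = 0.00743). The constitutive chaperones *hsp-1* and *hsp-90* had ratios of 0.01 and 0.06. The metallothioneins, which bind heavy metals, were also higher: *mtl-1* held 58.5, 275 and 65.2 in u74 and averaged 1668 in u218, and *mtl-2* averaged 8752 and 50255. Detoxification enzymes were higher in 16 of 66 cytochrome P450 genes, 19 of 61 UDP-glucuronosyltransferases and 18 of 41 glutathione S-transferases, and lower in 7, 4 and 2, against 18.7% higher and 20.6% lower over all genes. By limma 1, 2 and 3 of the genes tested in these families rose and 2, 0 and 3 fell, and with TMM scaling 1, 1 and 0 rose and 2, 0 and 3 fell. Without library 3, 6 of 33, 7 of 18 and 5 of 24 rose and 2, 1 and 3 fell, against 32.9% and 23.6% of all genes tested. *ugt-65* held 208, 291 and 102 in u74 and averaged 2583 in u218.

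In the intestine, 4 of 20 digestive protease genes were higher, a share close to the 18.7% over all genes, and 0 lower, with a median of 0.69; the aspartyl protease *asp-1* averaged 207105 and 307436. Fatty acid desaturases and elongases had 2 of 16 higher and 2 lower, the former including the delta-9 desaturase *fat-5* at 1370 and 4664, the latter the elongases *elo-8* at 942 and 30.0 and *elo-7* at 667 and 58.6. Nuclear hormone receptors, most of them orphan transcription factors of gut and epidermis, held 60 higher and 4 lower genes of 203, with a median of 0.77. By limma 21 of 92 rose and 5 fell, 48 rose and 5 fell without library 3, and 11 rose and 5 fell with TMM scaling. *nhr-270* held 27.2, 29.1 and 15.1 in u74 (23.8 ± 7.59, SD, n = 3) and 140, 219 and 266 in u218 (209 ± 63.5), a limma change of 3.08 ± 0.42 (SE, adjusted p = 0.00409). *nhr-2* fell, from 37.5, 125 and 248 in u74 to 6.04, 5.02 and 12.0 in u218 (limma change -3.70 ± 0.74, adjusted p = 0.0145, and between 0.0545 and 0.0708 without u74 library 2, u74 library 3 or u218 library 2).

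*mec-8* itself lies on the minus strand of chromosome I (9441010 to 9444227, WBcel235). Its averages were 2239 normalized counts in u74 and 3620 in u218, a ratio of 0.69. Its reads could not be resolved into libraries, so this difference was not tested. Among transcripts described as spliced under its control, *unc-52*, the perlecan of the muscle basement membrane, averaged 57984 and 62714, a ratio of 0.11. *mec-2*, a stomatin-like protein of the touch channel, averaged 606 and 1123 (0.89), and the neuronal kinase *sad-1* averaged 753 and 1429 (0.92). *fbn-1*, a fibrillin-like protein of the embryonic and larval apical matrix, averaged 2373 and 13768, a ratio of 2.54 close to those of *noah-1* and *noah-2*. These are whole-gene levels and say nothing of which exons were used.

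Chromosomes differed in the balance of directions. On X 24.9% of 2316 genes considered were higher and 10.9% lower, with a median ratio of 0.59. On V 23.6% of 3351 genes were higher and 18.4% lower, with a median of 0.31. On I 12.7% of 2596 genes were higher and 24.8% lower, with a median of -0.13, and on IV 16.9% and 26.1%. By limma 10.8% of tested genes on X rose and 12.1% fell, and on V 11.1% and 12.1%, against 10.5% and 21.5% on I. Germline-expressed genes are known to be sparse on X, and their part in these shares was not tested. Pseudogenes were lower more often than higher, with 261 lower and 119 higher of 643 and a median of -0.52, and 148 fell and 42 rose of 660 tested.

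**Figure D5:**
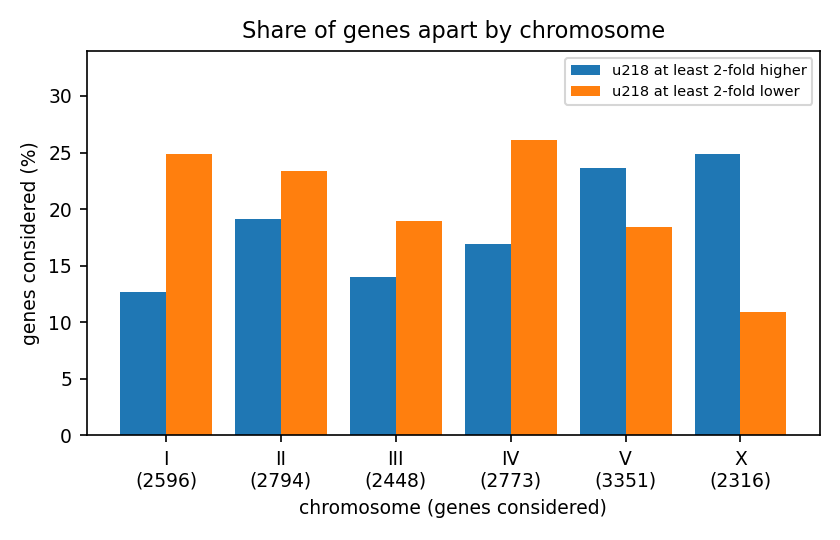
Share of genes considered, in percent, that were at least 2-fold higher (blue) or lower (orange) in u218 on each chromosome, with the number of genes in parentheses. On X 24.9% were higher and 10.9% lower, whereas on I the shares were 12.7% and 24.8%.

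Marker genes of the tissues of a whole animal were present in both genotypes, among them *unc-54* and *myo-3* for muscle, *myo-2* for pharynx, *asp-1* and *cpr-6* for intestine, and *dpy-7* for epidermis. The ciliary gene *osm-5* averaged 200 and 416, and *mec-17*, a touch neuron acetyltransferase, averaged 1378 and 3388. Several of the genes named above lie over another annotated gene, and as the strandedness of the libraries is not given their reads cannot be told apart. They are *mec-8*, *unc-52*, *fbn-1*, *cdc-25.3*, *perm-2*, *vit-2*, *lab-1*, *spe-15*, *fln-1*, *him-4*, *col-19*, *col-41*, *col-90*, *dpy-10*, *nas-37*, *eef-1A.1*, *mec-4*, *mec-12*, *mec-18*, *mks-3*, *tbh-1*, *tdc-1*, *act-4*, *ugt-65*, *elo-7*, *fat-5*, *hsp-90*, *clec-97* and *scl-25*.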

How the data were processed

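PolyA RNA of whole L4 animals was sequenced; 3 libraries labelled u74 KO and 3 labelled u218 KO were used. The authors deposited 1 signal per gene and genotype, averaged normalized counts; averaging and division by size factors were read from the name and values of the table. HTSeq, bedtools, DESeq and DESeq2 stand in the submitters' processing notes with no version; aligner, build, annotation and strandedness: not given in the sources used here. Symbols and positions came from the WBcel235 annotation, release 115, in which all 46926 identifiers matched.

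Ratios used a pseudocount of 1. Each average below 300 was solved for whole reads in 3 libraries (100% of nonzero values had exactly 1 solution; values moved off their place had one in 0% of cases below 100, and in 26.8% for u74 and 1.3% for u218 between 100 and 300), so depth is known as size factors only. limma 3.58.1 (R 4.3.3, trend) tested 6120 genes; tested on simulated data of this comparison, it recovered 91.5% of 200 genes changed 4-fold among 6120, and 7.11% of calls were unchanged genes. The simulation had a dispersion of 0.1 and no library apart, unlike the u218 libraries, so it does not give the error rate of the real test. Named genes were *mec-8* with 4 described targets, fixed tissue markers, the 15 highest and 15 lowest ratios at 50 or more normalized counts, the 15 largest limma rises and falls without overlap, and in each of 52 lists the 3 most abundant and 3 furthest members. The members and lists were chosen with earlier results of these data known, so no list was tested. No sequence is printed.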

Additional observations from a re-analysis of the deposited data

How the results depend on the processing

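Counts of higher and lower genes were within 1.5 times of those reported with pseudocounts of 0.5 and 10, a minimum of 100 normalized counts, recentred ratios and TMM scaling. Without a minimum 4688 genes were higher, and at 4-fold 537 were higher and 2226 lower. In the 4625 genes resolved in both columns, leaving out each library gave 1198 to 1444 higher and 1106 to 1200 lower genes, against 1296 and 1132 with all. List medians moved by less than the spread in 312 of 312 recalculations with other pseudocounts, minimums and scalings. These settings shift ratios little and none left out a library. Over members resolved in u218, leaving out u218 library 3 moved the median of major sperm proteins from -6.35 to -8.86. That of other sperm genes moved from -4.77 to -7.67, and that of histones from 1.11 to 1.18.

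The limma counts depended more on the processing. With no filter on low values 308 genes rose. With TMM factors 213 rose and 1009 fell, all 213 and 952 of these among the original calls; this scaling moved the median change of tested genes from 0.23 to -0.09 and the share of rises among calls from 40.2% to 17.4%. Leaving out 1 library gave between 98 (without u74 library 2) and 1990 (without u218 library 3) rises, and between 408 and 1431 falls; the share of rises was 58.2% without u218 library 3. Under every library left out 68 rises and 395 falls were called. limma voom gave 746 and 1073. No call reversed among the 55 named genes that limma tested; the other named genes, of 346 in all, were not tested. Recentring changed the sign of 10 named ratios and TMM scaling of 9, all within 0.15 of 0 and none at 2-fold (among them *unc-52*, *unc-54*, *hsp-1* and *hsp-90*). At an unadjusted p under 0.05 there were 2460 genes.

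edgeR and DESeq2 on the recovered reads were planned only where the deposited unit allowed a count test; that unit is an average over libraries, and they were not run. No paired analysis was possible because the recovered libraries carry no replicate numbers. Depth limits genes at or near 0 reads in u218, whose fitted changes depend on the pseudocount.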
